A study of Mus musculus with 6 samples.

Results

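The cell cycle cyclins were followed in CT26, a colon carcinoma line from BALB/c mice, after knockdown of Sep15, the 15 kDa selenoprotein. The set was given by name: the D-type cyclins Ccnd1, Ccnd2 and Ccnd3, the E-type cyclins Ccne1 and Ccne2, the A- and B-type cyclins Ccna2, Ccnb1 and Ccnb2, and the atypical cyclins Ccnf and Ccng1. Every probe set carrying only that gene's symbol in the array annotation was taken, which gave 24 probe sets for 9 of the 10 genes, out of 18193 genes and 45037 probe sets tested. Ccnb1 was not analysed here. Control cells carried the empty pU6-m3 vector and shSep15 cells the same vector with 1 short hairpin against Sep15, with 3 samples in each group and 1 Affymetrix Mouse430_2 array per sample. The labels give the arrays of a group as repeats, and the design text says that their mRNA samples differed, but neither names separate cultures or transfections, so the p-values measure only the spread between these samples. Whether they were clones or pools is not given in the sources used here, and with 1 hairpin construct no difference between constructs is covered.

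Cyclins are the regulatory subunits of cyclin-dependent kinases (CDKs). D-type cyclins with Cdk4 or Cdk6 respond to growth factors and act in G1, E-type cyclins with Cdk2 act at the entry into S phase, cyclin A2 acts through S phase and G2, and B-type cyclins with Cdk1 drive mitosis. Their levels swing because their genes are transcribed in waves, through E2F factors at the entry into S phase and through MuvB, B-Myb and Foxm1 complexes in G2, and because ubiquitin ligases destroy the proteins. Cyclin F is the founding F-box protein and binds no CDK in its known role, and cyclin G1 is a target gene of p53.

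Values are log2 signals per probe set, and a log2 difference is shSep15 minus control. Signals of different probe sets are not compared as levels, since probes differ in how well they bind. The background level was a log2 of 6.02, the 95th percentile of the mean signal of 80 olfactory and vomeronasal receptor probe sets. Of the 24 cyclin probe sets 23 lay above it in at least 1 group; the exception was a probe set of Ccnd3. The brighter probe set of the targeted gene, now named Selenof, fell from 12.40 ± 0.05 (SD, n = 3) to 9.48 ± 0.13 (SD, n = 3), and the dimmer lay under background. As for the cell type, 5 of 9 colon epithelial markers were above background in at least 1 group, whereas Cdh1, Cdx2, Krt19 and Vil1 were not. All 6 mesenchymal markers were above background, as were 2 of 5 leukocyte markers (Cd3e and Cd68) and 1 of 4 endothelial markers (Kdr); the pan-leukocyte gene Ptprc was not. The summed signal of the leukocyte markers, as a log2, was 8.29 to 8.68 on control arrays and 7.88 to 7.99 on shSep15 arrays, with a median difference of 0.02; Cd68 fell by 1.48 and Itgam fell by 0.37. That of the epithelial markers was 9.76 to 9.998 and 8.95 to 9.21, with a median of −0.07; Krt18 fell by 2.16, Krt20 fell by 2.13 and Lgals4 fell by 1.00. That of the mesenchymal markers was higher, 14.43 to 14.54 and 14.73 to 14.86, with a median of 0.37; Col1a1 rose by 1.32 and Pdgfrb fell by 3.36. The endothelial sum overlapped, at 7.43 to 7.44 and 7.37 to 7.51, with a median of 0.02. Their part in the results was not tested. On control 3 the array control for the 3′ part of 18S ribosomal RNA read 8.31, against 6.01 to 6.53 on the other arrays. The controls for its middle and 5′ parts were also highest there. They read 6.651 against 5.525 to 5.899, and 6.588 against 4.771 to 5.434.

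Cyclins of G1, of the entry into S phase, of G2 and of mitosis rose in shSep15 cells. None of the 9 was called lower by its brightest probe set (limma), and 0 were lower at an unadjusted p under 0.05. The genes called higher were Ccnd1, Ccnd3, Ccne1, Ccne2, Ccna2, Ccnb2 and Ccnf, which is 7 of 9 (limma, adjusted p under 0.05 over all probe sets), where 12.2% of all genes (25.0% in either direction), and 19.2% of the genes above background in a group, were called higher. Ccnd2 and Ccng1 were not called. The median log2 difference of the 9 genes was 0.90, against 0.01 for all genes and also for the genes above background. By array, the median shift of the 9 genes from their control means was 1.01, 0.82 and 0.97 on shSep15 arrays 1 to 3 and −0.06 to 0.02 on the control arrays. The same 7 genes were called higher without any 1 of the 6 arrays, control 3 included. In RNA from a whole culture, more cells in a phase of the cycle and more transcript per cell cannot be told apart.

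**Figure D1:**
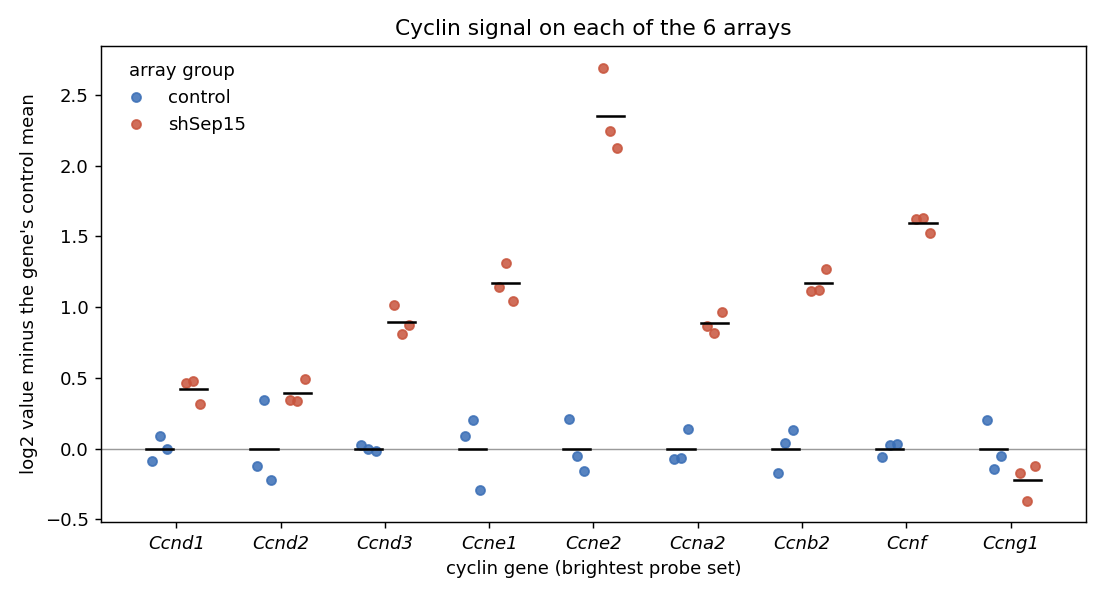
Log2 value of each cyclin's brightest probe set on each array, minus that gene's control mean, with control arrays in blue, shSep15 arrays in red and group means as black bars (n = 3 per group). The shSep15 arrays lie above all control arrays for 7 genes, with the widest gap for Ccne2, and the groups overlap for Ccnd2 and Ccng1. Of all genes, 19.3% had every shSep15 array above every control array. All 9 cyclins were above background in a group, as were 11131 of all 18193 genes.

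Of the D-type cyclins, which couple growth signals to G1, Ccnd3 and Ccnd1 rose on their brightest probe sets but not on all others. Ccnd3 read 9.52, 9.49 and 9.47 on control arrays 1 to 3 and 10.51, 10.30 and 10.37 on shSep15 arrays 1 to 3. The control values lay close together, and all shSep15 values were above them. The rise was 0.90 (SE 0.09, limma adjusted p = 0.000122), or 1.86-fold. Above background the gene has 1 other probe set, which differed by only 0.19 (95% confidence interval −0.06 to 0.44, limma adjusted p = 0.312), and with the third, under background, averaged in, the difference was 0.37 (limma adjusted p = 0.00807).

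Ccnd1, the cyclin most often tied to growth factor and Wnt signals, read 11.50, 11.68 and 11.59 in control and 12.05, 12.07 and 11.91 in shSep15 cells. The groups were apart by a narrow gap. The rise of 0.42 (SE 0.07, limma adjusted p = 0.00244), 1.34-fold, was the smallest among the cyclins called. Of its other probe sets, 1448698_at read 11.06 to 11.40 in control and 11.26 to 11.41 in shSep15 cells, and the overlapping groups differed by 0.13 (95% confidence interval −0.08 to 0.34, limma adjusted p = 0.432). The dimmest, 1417419_at, was higher by 0.73 (limma adjusted p = 0.0414), with control values spread from 8.85 to 9.76. That call ended without any 1 of the arrays other than control 2 (limma adjusted p from 0.0804 to 0.168), and the difference fell to 0.50 without control 1.

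Ccnd2, which shares the G1 role of Ccnd1, read 11.32, 11.78 and 11.22 in control and 11.78, 11.78 and 11.94 in shSep15 cells. Control 2 was as high as the shSep15 arrays, and the other control arrays were lower. The difference was 0.39 (95% confidence interval 0.10 to 0.69, limma adjusted p = 0.0705). All 7 probe sets of Ccnd2 had a positive difference, from 0.07 to 0.59, and 0 were called, where 19.4% of all probe sets were called in either direction; 6 of the 7 had an unadjusted limma p under 0.05. They share a transcript and are not independent. Control 2 was the highest control array on 5 of the 7 and control 3 on the other 2. Without control 2 the brightest probe set differed by 0.56 (limma adjusted p = 0.00276). With the probe sets averaged the difference was 0.40 (limma adjusted p = 0.0438), and with dim probe sets left out of the fit the brightest was called as well (limma adjusted p = 0.0384).

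Both E-type cyclins, which activate Cdk2 at the entry into S phase, rose, and Ccne2 rose the most of the set. Ccne2 read 7.05, 6.78 and 6.68 on control arrays and 9.53, 9.08 and 8.96 on shSep15 arrays. The groups lay far apart, and shSep15 1 was the highest. The rise of 2.36 (SE 0.17, limma adjusted p = 2.33e-05) amounts to 5.12-fold and was the 26th highest of 18193 genes. Ccne2 has 1 probe set on the array. Ccne1 read 8.67, 8.79 and 8.30 on control arrays and 9.73, 9.90 and 9.63 on shSep15 arrays with its brightest probe set, 1441910_x_at. Here control 3 was lowest, and all shSep15 arrays were higher than all control arrays. The rise was 1.17 (SE 0.14, limma adjusted p = 0.000431). The suffix _x marks probes that may also match other transcripts, but the probe set without it, 1416492_at, rose by more, from 7.91 ± 0.19 to 9.43 ± 0.16 (SD, n = 3), a log2 difference of 1.52 (limma adjusted p = 7.28e-05).

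Whether related cyclins changed by the same amount was asked within each array, from the log2 of one gene minus that of its relative. The change of Ccne2 was larger than that of Ccne1 by 1.19, with the shSep15 arrays 0.93 to 1.55 above the control mean of this difference and the control arrays from −0.26 to 0.14. That of Ccnd3 was larger by 0.48 than that of Ccnd1 and by 0.51 than that of Ccnd2. In these 3 pairs the groups did not overlap and the exact two-sided permutation test gave p = 0.1, the smallest that 3 against 3 arrays allow (adjusted p = 0.133 over the 4 pairs tested), so unequal change could not be called. Ccnd2 and Ccnd1 differed by −0.03 in their change, with overlapping groups (exact two-sided permutation p = 0.9, adjusted p = 0.9), and the sign turned without control 2 (0.10) or without shSep15 1 or 2 (0.02 and 0.03). With probe sets averaged, the excess of Ccne2 over Ccne1 was 1.01, whereas that of Ccnd3 turned to −0.06 against Ccnd1 and −0.03 against Ccnd2; that average includes the probe set of Ccnd3 under background.

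**Figure D2:**
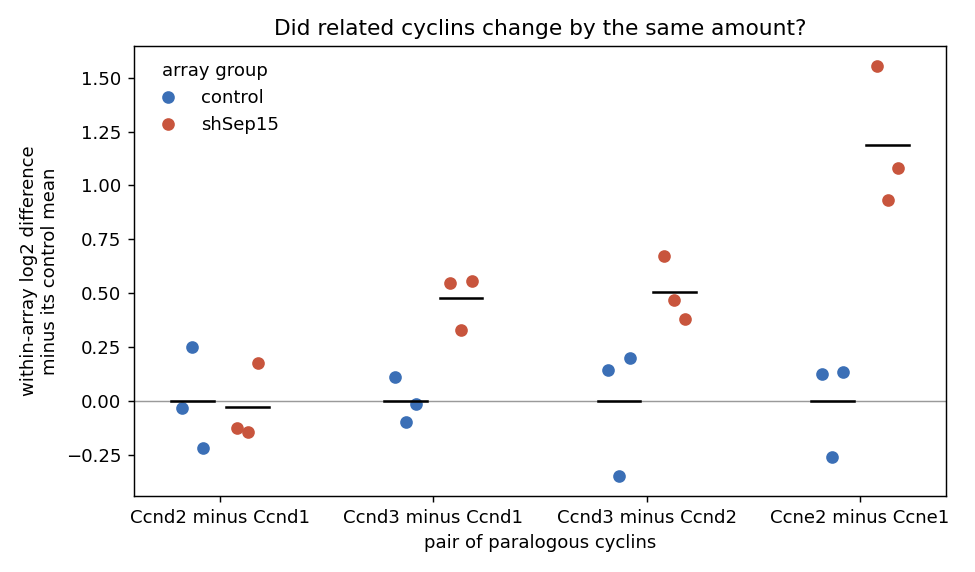
Within-array log2 difference between related cyclins, minus its mean on the control arrays, for control (blue) and shSep15 (red) arrays, with group means as black bars (n = 3 per group). The shSep15 arrays lie above the control arrays for Ccnd3 over Ccnd1 or Ccnd2 and for Ccne2 over Ccne1, and overlap them for Ccnd2 over Ccnd1.

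The cyclins of the later phases rose as well. Ccna2, the cyclin of S phase and G2, read 11.06, 11.06 and 11.26 in control and 12.00, 11.95 and 12.09 in shSep15 cells. Both groups were tight, and the lowest shSep15 array stood well above control 3. The rise of 0.89 (SE 0.08, limma adjusted p = 5.82e-05), 1.85-fold, was accompanied by one of 0.92 on the other probe set (limma adjusted p = 0.000249). Ccnb2, a mitotic cyclin of Cdk1, read 9.24, 9.45 and 9.54 in control and 10.52, 10.53 and 10.68 in shSep15 cells. Every shSep15 array was above every control array. The rise was 1.17 (SE 0.10, limma adjusted p = 7.10e-05), or 2.25-fold, on the only probe set of the gene.

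Ccnf, the substrate-binding subunit of an SCF ubiquitin ligase of G2, read 8.11, 8.19 and 8.20 in control and 9.79, 9.79 and 9.69 in shSep15 cells. Its replicates were among the tightest of the cyclins, and the groups were far apart. The rise was 1.59 (SE 0.10, limma adjusted p = 9.68e-06), or 3.02-fold, next in size to that of Ccne2. Its dimmer probe set, 1443807_x_at, was under background in control cells and higher by 1.08 (limma adjusted p = 0.0172), with shSep15 1 at 7.37 and the other shSep15 arrays at 6.26 and 6.34. That call ended without any 1 control array (limma adjusted p from 0.0534 to 0.0639), and the difference fell to 0.72 without shSep15 1 (limma adjusted p = 0.00679).

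Ccng1, which p53 induces and which recruits a phosphatase to Mdm2, was the only cyclin of the set whose brightest probe set had a negative difference. It read 11.69, 11.34 and 11.44 in control and 11.32, 11.12 and 11.37 in shSep15 cells. The groups overlapped, and control 1 was the highest. The difference of −0.22 (95% confidence interval −0.45 to 0.01, limma adjusted p = 0.192) was not called. The other probe sets read lower by 0.25 (limma adjusted p = 0.0947) and 0.42 (limma adjusted p = 0.0242), the latter without overlap. The call of the latter ended without shSep15 1 or 2 (limma adjusted p = 0.0870 and 0.101). With the probe sets of Ccng1 averaged the difference was −0.30 and just missed the threshold (limma adjusted p = 0.0502). Over all probe sets of the cyclins, 11 of 24 were called higher and 1 lower, where 9.71% and 9.66% of all probe sets were. Of all probe sets only 47.5% had a mean over the 6 arrays above background, whereas 23 of the 24 lay above it in at least 1 group.

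**Figure D3:**
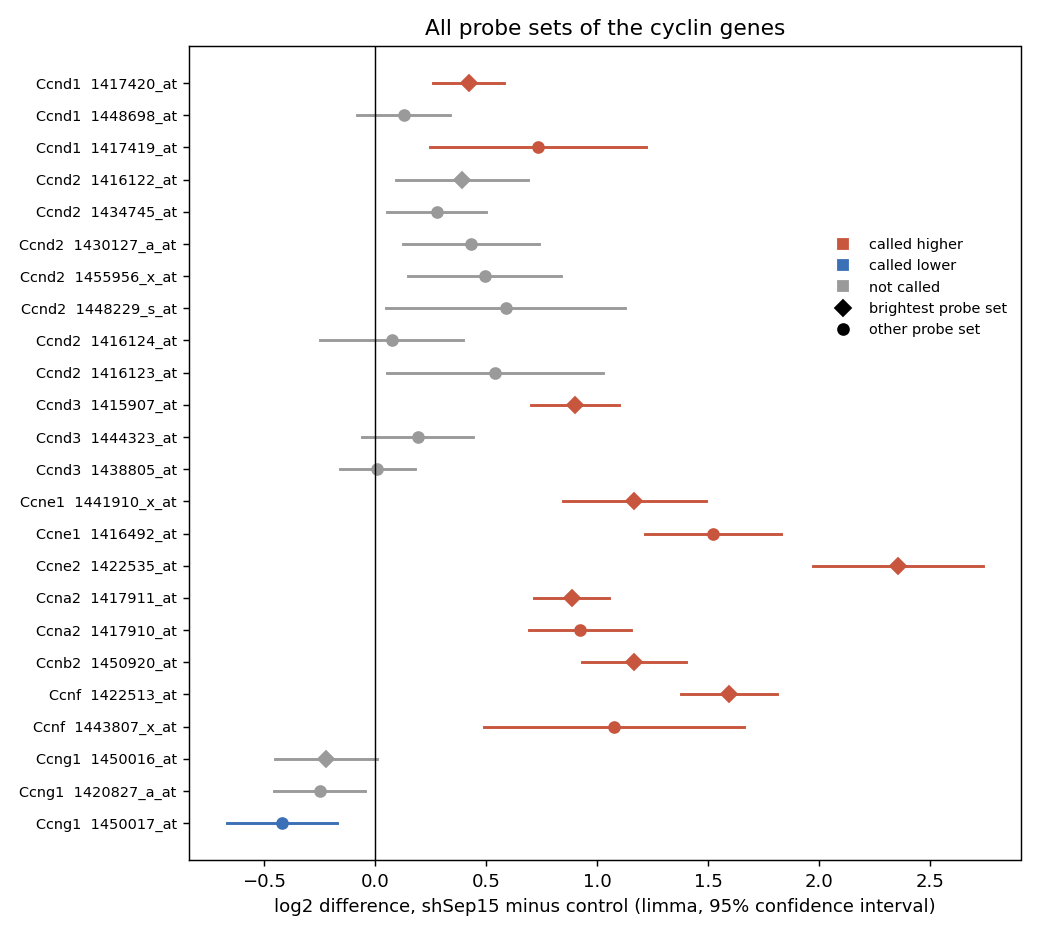
Log2 difference, shSep15 minus control, of each of the 24 cyclin probe sets, with its limma 95% confidence interval; diamonds are the brightest probe set of a gene, and colour gives the call. Both probe sets of Ccne1, Ccna2 and Ccnf are called higher, none of the 7 of Ccnd2 is called, and Ccng1 lies below 0.

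The promoter windows of Ccng1 and of 3 cyclins that rose are shown here, since the later cyclin genes are known to be switched on through a CHR element (TTTGAA) and CCAAT boxes. RefSeq windows of build GRCm38.p6, 250 bases before to 50 bases after the start site, were matched for 6 of the 10 genes (Ccnb1, Ccnb2, Ccnd3, Ccne1, Ccnf and Ccng1). Capitals mark TTTGAA and CCAAT on either strand (TTCAAA and ATTGG on the reverse); each line runs 5′ to 3′ on the gene's strand, the minus strand in all 4, and no marked matches overlap.
Ccnb2, chr9:70421505-70421804: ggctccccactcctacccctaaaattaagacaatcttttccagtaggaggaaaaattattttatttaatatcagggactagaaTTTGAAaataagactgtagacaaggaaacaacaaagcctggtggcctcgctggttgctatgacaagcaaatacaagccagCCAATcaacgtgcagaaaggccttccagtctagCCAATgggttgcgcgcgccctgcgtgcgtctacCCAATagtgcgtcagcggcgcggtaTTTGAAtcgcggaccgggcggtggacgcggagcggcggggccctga
Ccnf, chr17:24251360-24251659: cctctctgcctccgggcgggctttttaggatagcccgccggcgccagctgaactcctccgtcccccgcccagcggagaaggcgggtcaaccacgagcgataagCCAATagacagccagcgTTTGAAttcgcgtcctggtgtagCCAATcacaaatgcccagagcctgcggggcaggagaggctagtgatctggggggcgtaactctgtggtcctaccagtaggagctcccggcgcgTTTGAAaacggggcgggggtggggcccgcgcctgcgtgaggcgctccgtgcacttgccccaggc
Ccne1, chr7:38107441-38107740: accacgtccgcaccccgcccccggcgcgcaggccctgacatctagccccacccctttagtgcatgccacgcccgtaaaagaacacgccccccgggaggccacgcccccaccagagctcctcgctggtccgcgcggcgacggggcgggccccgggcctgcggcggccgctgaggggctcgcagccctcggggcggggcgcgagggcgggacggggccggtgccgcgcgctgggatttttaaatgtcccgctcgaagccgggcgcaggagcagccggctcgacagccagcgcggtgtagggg
Ccng1, chr11:40755237-40755536: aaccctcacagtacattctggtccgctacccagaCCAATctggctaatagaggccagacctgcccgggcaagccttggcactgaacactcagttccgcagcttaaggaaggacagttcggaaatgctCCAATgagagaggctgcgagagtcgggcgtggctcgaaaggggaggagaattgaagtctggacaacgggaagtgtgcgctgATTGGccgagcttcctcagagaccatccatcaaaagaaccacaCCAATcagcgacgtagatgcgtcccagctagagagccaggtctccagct

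The windows of Ccnb2 and Ccnf, which rose by 1.17 and 1.59, both hold TTTGAA and CCAAT. Ccnb2 has 2 matches of TTTGAA, the nearer starting at base 5 of the transcript, and 3 of CCAAT. Ccnf has 2 of TTTGAA, the nearer starting at position −14 from the start site, and 2 of CCAAT. Among 32851 RefSeq windows of the same length, 17.9% held TTTGAA, 37.4% held CCAAT, and 2.09% held TTTGAA with at least 2 CCAAT. The window of Ccne1, which rose by 1.17, held neither motif, and those at the 2 start sites of Ccnd3, which rose by 0.90, held no TTTGAA and 0 and 1 CCAAT. The window of Ccnb1 held no TTTGAA and 2 CCAAT. That of Ccng1, which was not called, held 4 CCAAT, a number that 1.06% of windows reach, and no TTTGAA, and also 1 match of the p53 decamer motif on either strand, found in 8.36% of windows. An E2F motif, TTTNNCGC, was on neither strand of the cyclin windows and in 5.17% of all windows. A match is a string of letters, and its absence says only that these letters are not in this window.

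More genes were higher on some chromosomes than on others, and 4 of the 7 cyclins called higher lie on such chromosomes. On chromosome 3, which carries Ccna2, 42.5% of 544 genes above background were called higher, on chromosome 4 (Ccne2) 32.8% of 687 and on chromosome 17 (Ccnd3 and Ccnf) 31.7% of 559. The chromosomes of Ccnb2 (9) and of Ccnd1 and Ccne1 (7) had 13.3% and 14.8%. The medians of the log2 differences were 0.26, 0.16 and 0.16 on chromosomes 3, 4 and 17, and between −0.30 and 0.07 on the others. Each cyclin was set beside its 10 nearest genes above background on either side in the RefSeq gene order (11 neighbours for Ccnd1, near the end of its chromosome). Ccne2 (2.36) was above all 20 neighbours, which had a median of 0.21 and reached 1.96. Ccnf (1.59) was above all of its own, with a median of 0.27 and 9 of 20 called higher. Ccnb2 and Ccne1 also exceeded all 20 neighbours, and Ccna2, Ccnd3 and Ccnd1 all but 1. Ccnd2, which was not called, was only just above its highest neighbour (0.39 against 0.38). The part of chromosome position in the cyclin changes was not tested.

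**Figure D4:**
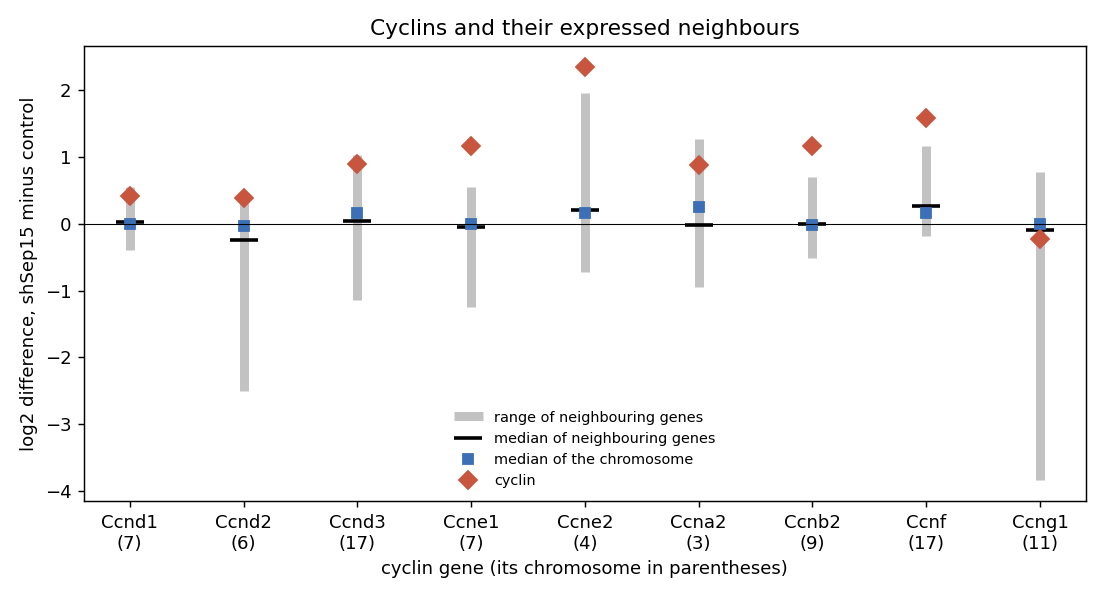
Log2 difference of each cyclin (red diamond), beside the range (grey bar) and median (black line) of up to 20 neighbouring genes above background and the median of its chromosome (blue square). Ccne2, Ccnf, Ccnb2 and Ccne1 lie above the range of their neighbours, Ccnd2 only just above it (0.39 against 0.38), and Ccng1 lies within it.

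The shares of all genes against which the lists are read are 12.2% called higher and 12.8% called lower, or 2140 and 2222 of the 11131 genes above background. Of 15 cyclins outside the cell cycle group 2 rose and 2 fell, near the shares of all genes, with a median of −0.02. Ccnc, a partner of the Mediator kinase Cdk8, rose by 0.67 (limma adjusted p = 0.00405), but the 3 other probe sets above background did not share the call, and their average with it gave 0.14 (limma adjusted p = 0.485). Ccng2, a relative of Ccng1 linked to growth arrest, rose by 0.64 (limma adjusted p = 0.0197); the call ended without control 3 or shSep15 3 (limma adjusted p = 0.0687 and 0.0677), and its 1 further probe set above background missed the threshold. Ccnl1, a cyclin of splicing, and Ccni fell by 0.31 and 0.23 (limma adjusted p = 0.0340 and 0.0129). The call of Ccnl1 ended without any 1 array other than control 2 (limma adjusted p up to 0.122), and that of Ccni without control 1 or shSep15 2 (0.0504 and 0.0606) and with probe sets averaged (−0.06, limma adjusted p = 0.653). Both calls also ended without the eBayes trend (limma adjusted p = 0.0741 and 0.101). When 1 array was left out, 1 or 2 members rose and 0 to 2 fell. The transcription elongation cyclins Ccnt1 and Ccnt2 differed by −0.06 and 0.16, and Ccnk by 0.11, at limma adjusted p from 0.626 to 0.753.

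The kinases and partners of the cyclins went both ways. Of 11 measured, 6 rose and 4 fell, where 12.2% and 12.8% of all genes did, with a median of 0.23. All 11 were above background, where the shares were larger (2140 and 2222 of 11131). When 1 array was left out, 3 to 6 of the 11 rose and 1 to 4 fell. The rises came to 3 without shSep15 1 or 3, and the falls to 1 without shSep15 1 and to 2 without control 2 or shSep15 2. Cdk2, the partner of the E-type cyclins and cyclin A2, rose by 1.14 (SE 0.13, limma adjusted p = 0.000342), from 8.66 ± 0.22 to 9.80 ± 0.15 (SD, n = 3). With its probe sets averaged the rise was 0.55 (limma adjusted p = 0.00117), but all its probe sets other than the brightest lay under background. Cdk6, a partner of the D-type cyclins, rose by 0.69 (limma adjusted p = 0.00186), as did 1 of its 2 other probe sets above background. Cdk4, the other partner of the D-type cyclins, fell by 0.22 (limma adjusted p = 0.0165), and Cdk1, the mitotic kinase, rose by 0.23 (limma adjusted p = 0.0492); both were picked once their values were known. The call of Cdk1 ended without any 1 array other than control 3 (limma adjusted p up to 0.160), with the replicate block (0.0700) and under each rescaling of the arrays (0.0503 and 0.0636). That of Cdk4 ended without control 2 or shSep15 1 or 2 (limma adjusted p up to 0.0638), and both ended without the eBayes trend (0.113 and 0.0949). Of the CDK-activating kinase, the assembly subunit Mnat1 fell by 0.52 (limma adjusted p = 0.00804) and the cyclin subunit Ccnh by 0.30 (limma adjusted p = 0.0169), whereas the kinase subunit Cdk7 rose by 0.42 (limma adjusted p = 0.0150), the latter pair picked once their values were known. The call of Cdk7 ended without shSep15 1 or 3 (limma adjusted p = 0.0523 and 0.0723), and that of Ccnh without control 2 or shSep15 1 (0.0590 and 0.0625) and with probe sets averaged (−0.13, limma adjusted p = 0.491). Cdk5, a kinase best known from neurons, rose by 0.54 (limma adjusted p = 0.0428), a call that ended without any 1 array other than control 3 (limma adjusted p from 0.0509 to 0.146), without the eBayes trend (0.0536) and with probe sets averaged (0.22, limma adjusted p = 0.187).

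Of 7 CDK inhibitors 2 rose and 0 were called lower (limma; 12.2% and 12.8% of all genes), both risers of the INK4 family that binds Cdk4 and Cdk6. Cdkn2c rose by 1.32 (SE 0.10, limma adjusted p = 3.15e-05) and Cdkn2d by 1.25 (SE 0.13, limma adjusted p = 0.000142). Cdkn2a, Cdkn2b and Cdkn1c were near background in both groups. Cdkn1a, the p53-induced inhibitor of Cdk2, differed by −0.24 (limma adjusted p = 0.0691; 0.0355 without control 3) and Cdkn1b by −0.08 (limma adjusted p = 0.796; the sign turned without control 1 or shSep15 2), both picked once their values were known. The median of the 7 was −0.03.

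Among the transcription factors that act on cyclin genes, 10 of 23 rose and 5 fell, with a median of 0.11. Of all genes 12.2% and 12.8% did. All 23 were above background, and the falls were near the share of such genes (2222 of 11131). The rises were above theirs (2140 of 11131). When 1 array was left out, 9 rose and 1 to 5 fell. The falls came to 2 without control 1 or 2 and to 1 without shSep15 2 or 3. Of the E2F family, repressors and activators were among them. Of the repressors, E2f8 rose by 1.75 (SE 0.10, limma adjusted p = 6.88e-06), E2f7 by 1.49 and E2f6 by 1.08 (0.72 with probe sets averaged). Apart from the brightest, the probe sets in the average of E2f6 all lay under background. Of the activators, E2f3 rose by 0.76 (limma adjusted p = 0.00583) and E2f2 by 0.66 (limma adjusted p = 0.00332), and E2f1 differed by −0.17 (limma adjusted p = 0.449). Mybl2, which encodes B-Myb, the activator of G2 cyclin genes, rose by 1.24 (limma adjusted p = 0.00108). Its partner factor Foxm1 differed by 0.11 (limma adjusted p = 0.517). The subunit Lin54, which binds the CHR element, fell by 0.66 (limma adjusted p = 0.0269), and the CCAAT-binding subunits Nfya and Nfyb by 0.45 and 0.60 (limma adjusted p = 0.0258 and 0.0135), whereas Nfyc rose by 0.51 (limma adjusted p = 0.00328). Of the other MuvB subunits listed, Lin37 rose by 0.38 (limma adjusted p = 0.0413), and Lin9 and Lin52 were not called (−0.05 and −0.14). How far the call of Lin37 depends on single arrays is not given here. Myc fell by 1.03 (limma adjusted p = 0.000854). The calls of Lin54 and Nfya ended without control 1 or 2 or shSep15 2 or 3 (limma adjusted p up to 0.0987 and 0.102), and that of Nfyb without shSep15 2 or 3 (up to 0.0662). With probe sets averaged Lin54 differed by −0.26 (limma adjusted p = 0.244). Foxm1, E2f1, E2f2, E2f3, the Lin genes, the NF-Y genes and Myc were picked once their values were known.

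Of the anaphase-promoting complex (APC/C), the ligase that destroys cyclins A2 and B2, and its regulators, 7 of 19 rose and 5 fell. Of all genes 12.2% and 12.8% did. All 19 were above background, where the shares were larger (2140 and 2222 of 11131). Members of the list had a median of 0.18. Those that rose most are regulators rather than core subunits: the inhibitor Fbxo5 by 1.79 (SE 0.10, limma adjusted p = 6.12e-06), the activators Cdc20 by 1.00 and Fzr1 by 0.95, and the ubiquitin-conjugating enzyme Ube2c by 0.80. The 2 other probe sets of Cdc20 above background rose as well. The core subunits Anapc1, Anapc7, Anapc11, Anapc16 and Cdc23 fell by 0.39 to 0.53, and Anapc2, Anapc5 and Cdc16 rose by 0.26 to 0.41, all picked once their values were known. The call of Cdc23 ended without any 1 array other than control 3 (limma adjusted p up to 0.148) and that of Anapc7 without control 2 or shSep15 3 (0.0564 and 0.0527). Those of Anapc2 and Cdc16 ended without any 1 array other than control 3 and control 1, respectively (limma adjusted p up to 0.101 and 0.109), and with the replicate block (0.0622 and 0.0510). With probe sets averaged Anapc1, Anapc7 and Cdc16 differed by −0.05, −0.23 and 0.11 and were not called (limma adjusted p = 0.764, 0.0667 and 0.416). The shift to equal medians also ended the calls of Anapc2 and Cdc16 (limma adjusted p = 0.0516 and 0.0584), and the fit without the eBayes trend that of Cdc16 (0.0605). When 1 array was left out, 5 or 6 members rose and 3 to 5 fell, the lowest count of falls without control 2 or shSep15 3.

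Of 13 genes listed with the cullin ligases that mark D- and E-type cyclins, 3 rose and 2 fell. All 13 were above background, and these counts were near the shares of such genes (2140 and 2222 of 11131). Of all genes 12.2% and 12.8% did. The median was −0.04 and the range from −0.55 to 0.54. Fbxw7, which recognises cyclin E, rose by 0.45, Skp1 by 0.41 and Cul3 by 0.54 (limma adjusted p = 0.0421, 0.0215 and 0.0173). Ambra1, which marks D-type cyclins for destruction, fell by 0.55 (limma adjusted p = 0.0104). The other gene that fell was Usp28, by 0.40 (limma adjusted p = 0.0486), picked once its value was known. That call ended with the replicate block and without control 1 or 2 or any 1 shSep15 array, where Ambra1 alone or neither was called lower. The call of Fbxw7 ended without any 1 array other than control 1 (limma adjusted p up to 0.133) and on the shift to equal medians (0.0562). That of Skp1 ended without any 1 array other than control 2 or shSep15 2 (limma adjusted p up to 0.0997) and without the eBayes trend (0.0503). That of Cul3 ended without control 2 or 3 or shSep15 1 (limma adjusted p up to 0.0751) and with probe sets averaged (0.37, limma adjusted p = 0.0588), and that of Ambra1 without shSep15 3 (0.0501) and with probe sets averaged (−0.30, limma adjusted p = 0.0911). Apart from the brightest, the probe sets in the average of Ambra1 all lay under background. The calls of Fbxw7 and Skp1 held with probe sets averaged (0.49 and 0.56, limma adjusted p = 0.00565 and 0.0160). When 1 array was left out, 0 to 2 genes rose and 0 to 3 fell. Over all 6 lists, 30 of 88 genes rose and 18 fell, the latter near the share among genes above background (2222 of 11131), with a median of 0.05.

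**Figure D5:**
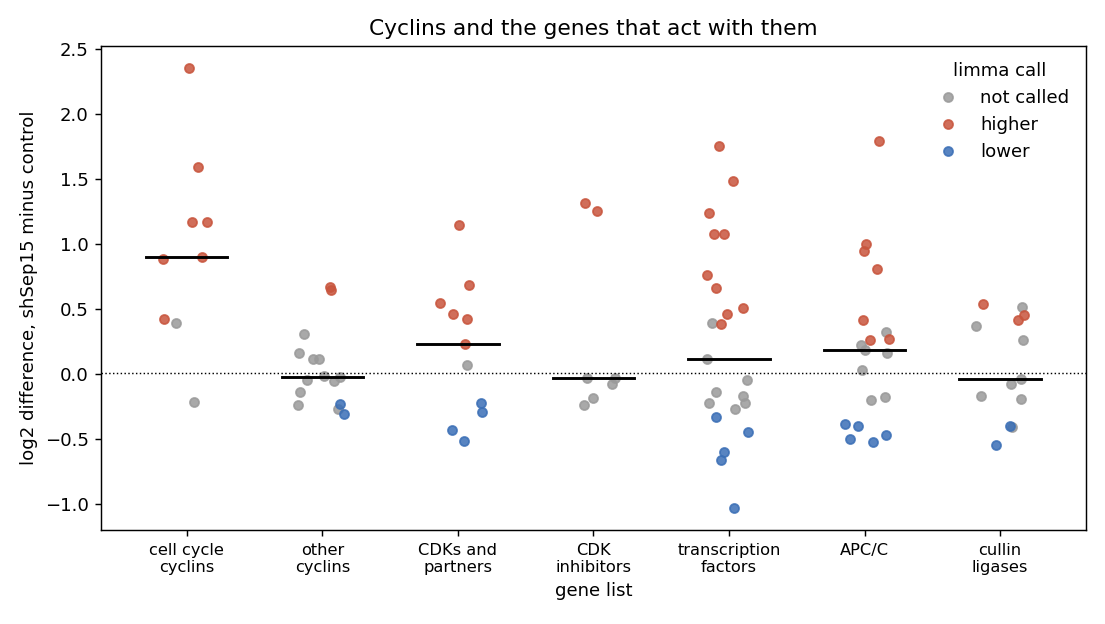
Log2 difference, shSep15 minus control, of each gene of the cyclin set and of the 6 lists of genes that act with them (CDK, cyclin-dependent kinase; APC/C, anaphase-promoting complex); points are genes coloured by limma call, black bars are list medians and the dotted line is the median of all genes. The cyclin set has its median at 0.90, while the other medians lie between −0.04 and 0.23.

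The genes whose pattern over the 6 arrays was nearest to that of a cyclin were found among 11130 other genes above background, by the root mean square gap between each gene's differences from its own control mean. For Ccna2 they were Fam216a, Topbp1 and Gmds, with gaps of 0.04, 0.06 and 0.06 on the log2 scale and differences of 0.90, 0.82 and 0.83. For Ccne2 they were Fpgt, Chtf18 and Kcnab2, with wider gaps of 0.16 to 0.22 and differences of 2.46, 2.41 and 2.44. The control means of Chtf18 and Kcnab2 lay under background. For Ccnd1 they were Ncdn, Aldh16a1 and Akr1e1, with gaps of 0.03 to 0.04 and differences of 0.41 to 0.44.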

How the data were processed

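RNA of 6 CT26 samples, 3 with the empty vector and 3 with the hairpin against Sep15, was hybridised to 1 array each after TRIzol extraction and biotin labelling, per the labels' protocols. The deposited values are log2 signals per probe set. The authors made them with RMA, which corrects background, normalizes between arrays and summarises the probes of each set (per the submitters' processing notes). Its version, and whether probe sets were filtered, is not given in the sources used here. RMA sets the distributions of the arrays alike, so total RNA per cell cannot be read from the values, and it compresses the differences of dim probe sets. With 3 arrays per group their number limits the precision; array medians lay between 5.83 and 5.87.

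The 64 array controls among 45101 probe sets were left out. Of the rest 34945 had 1 gene symbol, 932 several and 9160 none, and only the first were named, with symbols updated through the RefSeq table of GRCm38.p6 (34741 matched). A gene was read from its brightest probe set over the 6 arrays. All 45037 probe sets were fitted in limma 3.58.1 (R 4.3.3; lmFit, eBayes with intensity trend, group as the only term), with Benjamini-Hochberg adjustment over all of them and a threshold of 0.05. The script was tested on simulated data. Groups come from the sample titles.

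The cyclins and the 6 lists around them were chosen with earlier results of these data known. Named genes are all members, the targeted gene, up to 4 called genes of each list with the largest difference and the 3 nearest patterns of Ccna2, Ccne2 and Ccnd1; others are marked where they stand. The neighbour comparison and the motifs were chosen in the same knowledge. Alternatives were the replicate number as a block, no trend, a shift to equal medians, quantile normalization, a filter on dim probe sets, averaged probe sets and leaving out each array. The averages include probe sets under background. The planned pair of Ccnb1 and Ccnb2 was not run.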

Additional observations from a re-analysis of the deposited data

How the results depend on the processing

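The 7 cyclins called higher kept their call under every alternative run, and 0 cyclins were called lower in any. The count called higher was 7 to 8. Ccnd2 was added without control 2, with dim probe sets left out of the fit and with probe sets averaged. In that last setting Ccng1 just missed a lower call (−0.30, limma adjusted p = 0.0502). No pairing of the arrays by the repeat numbers of the labels was evident. The deviations of same-numbered control and shSep15 arrays correlated at 0.40, −0.20 and −0.06 for numbers 1 to 3. Those of differently numbered arrays correlated at −0.39 to 0.44. With 3 arrays per group these correlations constrain each other and cannot exclude a pairing. With the replicate number as a block, 7 cyclins were higher and 0 lower, all 18193 genes gave 2246 higher and 2345 lower calls against 2220 and 2323, and the cullin ligase genes called lower came to 1 in place of 2. Other counts that moved were small. With probe sets averaged, other cyclins gave 1 higher and 1 lower, the APC/C list 3 lower and the cullin ligases 1 lower, and the change of Ccnd3 against Ccnd1 and Ccnd2 turned to −0.061 and −0.032. Without the eBayes trend other cyclins gave 0 lower (limma). With quantile normalization or with dim probe sets left out, CDK inhibitors gave 1 lower, against 0.

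When each array was left out in turn, the CDK and partner genes called higher were 3 to 6 and lower 1 to 4, other cyclins 1 to 2 and 0 to 2, APC/C genes 5 to 6 and 3 to 5, cullin ligase genes 0 to 2 and 0 to 3, transcription factors 9 and 1 to 5, and CDK inhibitors 2 and 0 to 1. The difference in change between Ccnd2 and Ccnd1 ranged from −0.14 to 0.10. The difference of the uncalled Ccnd2 probe set 1416124_at ranged from −0.030, without shSep15 1, to 0.22, and that of the Ccnd3 probe set under background from −0.011, without shSep15 2, to 0.027; that of Cdkn1b, uncalled, ranged from −0.19 to 0.065, above 0 without control 1 (0.0028) or shSep15 2. The causes of these moves were not tested. RMA values carry no detection call, so differences of probe sets near background are not exact.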
